A study of Mus musculus with 27 samples.

Results

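The genes described here encode the protein components of the mitochondrial ribosome. Members were chosen by symbol, as Mrpl (large subunit) or Mrps (small subunit) followed by a number and at most 1 letter, in the deposited count table. No measured value enters that rule, but the family was selected on its fold changes between diets and regions, which were known from earlier results of these data. The rule found 78 of 27304 genes, 49 of the large and 29 of the small subunit. In the tests across all genes, 77 of the 78 passed the filter on low counts. The exception was Mrpl53, which had 0 counts in 27 of 27 libraries. Symbol and place in the solved ribosome differ for 3 members. The proteins of Mrps30 (mL65) and Mrps18a (mL66) sit in the large subunit, and Mrps36 is now assigned to the 2-oxoglutarate dehydrogenase complex of the citric acid cycle.

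The mitochondrial ribosome translates only the mRNAs encoded in mitochondrial DNA, all of which specify subunits of the respiratory chain and ATP synthase. Its RNAs are transcribed inside the organelle, whereas every one of its proteins is encoded in the nucleus and imported. The small subunit holds the mRNA and the decoding site, and the large subunit forms the peptide bond and is anchored at the inner membrane. Heart muscle is among the tissues richest in mitochondria.

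RNA was sequenced in bulk from hearts of male ApoE-/- mice on C57BL/6J, 7 days after myocardial infarction (MI), giving 27 libraries from 14 mice. All mice, controls included, lacked ApoE, ate a western type diet and underwent infarction, so no uninjured heart and no wild-type heart enters any comparison. Chronic kidney disease (CKD) was produced by adding adenine to the diet after the first 4 weeks, at 0.3% for 10 days and then at 0.15% for 11 days, of which 4 preceded the MI. Control mice stayed on the western type diet without adenine. Remote myocardium was sequenced from 6 control and 8 CKD mice, and infarct tissue from 6 control and 7 CKD mice; 13 mice gave both regions. The study compared adenine-fed with control mice after MI, and the 2 regions allow the same comparison in injured and in remote tissue.

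Total counts per library ran from 14255456 to 42566498. Each mouse counts as 1 replicate. For mouse 9179 the labels of the remote library disagree, with CKD in the title and control in the treatment field; the title was followed, which puts it in the same diet as the infarct library of that mouse. Cardiomyocyte markers were found in every library, with 0 of 12 at 0 throughout any group. Their summed level ran from 49621 to 111016 CPM (counts scaled to the size of the library) in control remote, 88541 to 119993 in CKD remote, 4915 to 31614 in control infarct and 30814 to 119772 in CKD infarct libraries. Over 8 markers of activated fibroblasts the sums were 769 to 11309, 473 to 1394, 22306 to 46569 and 419 to 26786 CPM in the same order.

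Some libraries stood apart from their groups. The library labelled infarct of CKD mouse 9179 held 80.8 CPM of Col1a1, a collagen gene of scar fibroblasts, which was below the 115 to 339 CPM of the CKD remote libraries. The infarct library of CKD mouse 9172 held 1651 CPM of Col1a1, against 3178 to 11909 CPM in the 5 CKD infarct libraries other than those of mice 9172 and 9179. The remote library of control mouse 9180 held 3866 CPM of Col1a1, against 173 to 1047 CPM in the other control remote libraries. The main results are given with and without these 3 libraries. The part of tissue makeup in the results was not tested, and in bulk RNA fewer cardiomyocytes and less RNA per cardiomyocyte cannot be told apart.

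Transcripts of both subunits were most abundant in remote myocardium, lowest in the infarcts of control mice and intermediate in the infarcts of CKD mice. The mean log2 CPM of the 48 tested large-subunit members was 5.93 ± 0.20 (SD over 6 mice) in remote tissue of control mice and 6.13 ± 0.10 (8 mice) in that of CKD mice. It was 4.84 ± 0.30 (n = 6) in control infarct and 5.59 ± 0.40 (n = 7) in CKD infarct libraries. For the 29 small-subunit members the corresponding means were 5.60 ± 0.22, 5.81 ± 0.10, 4.46 ± 0.30 and 5.22 ± 0.43. All members together took 0.482% ± 0.027 of the counts in control remote, 0.519% ± 0.023 in CKD remote, 0.297% ± 0.048 in control infarct and 0.420% ± 0.080 in CKD infarct libraries.

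Among single libraries, every control infarct value of the large-subunit mean (4.35 to 5.04) lay below every CKD infarct value (5.25 to 6.28). The CKD infarct values fell into 5 libraries between 5.25 and 5.52 and the libraries of mice 9172 (5.99) and 9179 (6.28), of which the first lay within the range of remote tissue and the second at its upper end (6.28 in the highest remote library). Without both, the CKD infarct mean was 5.37 ± 0.12 for the large and 4.98 ± 0.15 for the small subunit. Mouse 9180 gave the lowest remote value, 5.57, and without it the control remote means were 6.00 ± 0.11 and 5.68 ± 0.12. No p-value is given for these means, because the family was singled out with earlier results of these data known.

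**Figure D1:**
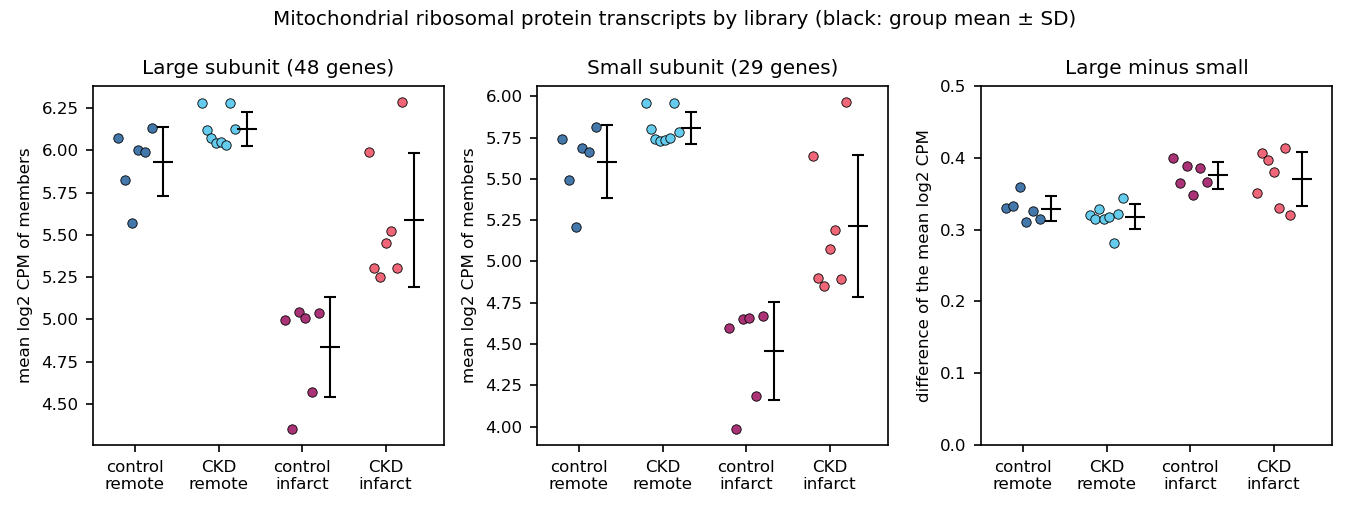
Mean log2 CPM of the large-subunit members (left), of the small-subunit members (middle) and their difference (right) in each of the 27 libraries, by group; points are libraries and black bars the group mean ± SD. Both subunits are lowest in control infarcts, and the difference stays between 0.28 and 0.41 in every library.

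Large and small subunit changed in the same direction across the 4 groups, with a small difference in extent. The large-subunit mean minus the small-subunit mean was 0.33 ± 0.02 in control remote, 0.32 ± 0.02 in CKD remote, 0.38 ± 0.02 in control infarct and 0.37 ± 0.04 in CKD infarct libraries, on the log2 CPM scale. Single libraries ran from 0.31 to 0.36, 0.28 to 0.34, 0.35 to 0.40 and 0.32 to 0.41 in that order. With all libraries, the ranges of infarct and remote tissue therefore overlapped in both diets. Without the 3 libraries that stood apart, control libraries ran from 0.31 to 0.33 in remote tissue and 0.35 to 0.40 in infarcts. Those ranges were separate, while CKD infarcts, from 0.33 to 0.41, still overlapped CKD remote tissue. Leaving out libraries can only narrow a range. The difference between regions, from 0.33 to 0.38 in control hearts, was small beside the drop of more than 1 log2 unit in each subunit. Since counts were not divided by transcript length, the offset itself does not say which subunit has more transcripts.

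Within single hearts, the large-subunit mean was lower in infarct than in remote tissue in 12 of the 13 mice with both regions. Infarct minus remote was -1.10 ± 0.34 (n = 6, range -1.47 to -0.53) in control hearts and -0.54 ± 0.38 (n = 7, range -0.98 to 0.16) in CKD hearts. For the small subunit it was -1.14 ± 0.35 and -0.59 ± 0.42. Mouse 9179 was the 1 heart above 0 for both subunits. The ranges of control and CKD hearts overlapped for both subunits. Without mice 9172, 9179 and 9180 the means were -1.21 ± 0.22 in 5 control and -0.73 ± 0.18 in 5 CKD hearts for the large and -1.26 ± 0.22 and -0.80 ± 0.20 for the small subunit. The large-subunit ranges were then separate (-1.47 to -0.99 and -0.98 to -0.51), and those of the small subunit still overlapped (-1.51 to -1.03 and -1.07 to -0.56). Ranges cannot widen when mice are left out. Within a heart, the small subunit fell further than the large in 12 of 13 mice. The large-minus-small difference was higher in infarct than in remote tissue by 0.03 to 0.07 in 6 of 6 control hearts and by 0.03 to 0.09 in 6 of 7 CKD hearts, and was -0.02 in mouse 9179.

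In control hearts, members of both subunits were lower in infarct than in remote tissue. By edgeR's quasi-likelihood test with Benjamini-Hochberg adjustment over all genes at 0.05, 47 of 48 large-subunit and 29 of 29 small-subunit members fell, against 33.2% of all genes tested. The median log2 fold change was -1.13 for the large and -1.11 for the small subunit, beside -0.01 over all genes. CPM did not overlap between the regions for 44 large-subunit and 27 small-subunit members, against 17.1% of all genes in that direction.

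The deepest fall was that of Mrps35, a mitochondria-specific protein of the small subunit. Its level ran from 55.5 to 121 CPM with a median of 106 in control remote libraries, and from 10.6 to 33.6 with a median of 26.4 in control infarcts. The groups were fully separate, with a log2 fold change of -2.03 ± 0.32 (SE, edgeR adjusted p = 2.08e-05). Mrpl55, the mitochondrial bL31 protein of the large subunit, went from 60.2 to 115 CPM (median 104) in remote tissue to 11.6 to 36.2 (median 29.2) in infarcts. Its log2 fold change was -1.91 ± 0.28 (edgeR adjusted p = 1.43e-05), again without overlap. Mrpl42, a mitochondria-specific large-subunit protein, fell by 1.78 and Mrpl45, the large-subunit protein that anchors the ribosome at the inner membrane, by 1.52 on the log2 scale.

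The stalk of the large subunit, where translation factors dock, is built from the products of Mrpl10, Mrpl11 and Mrpl12. All 3 genes fell. Mrpl12, whose product is also reported to bind the mitochondrial RNA polymerase, went from 171 to 287 CPM (median 249) in control remote libraries to 34.1 to 98.1 (median 81.6) in control infarcts, a log2 fold change of -1.72 ± 0.28. Mrpl11 changed by -1.11 ± 0.19 and Mrpl10, the base of the stalk, by -0.66 ± 0.11. Remote and infarct libraries of control hearts did not overlap for any of the 3. Whether the 3 changes differ from each other was not tested.

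**Figure D2:**
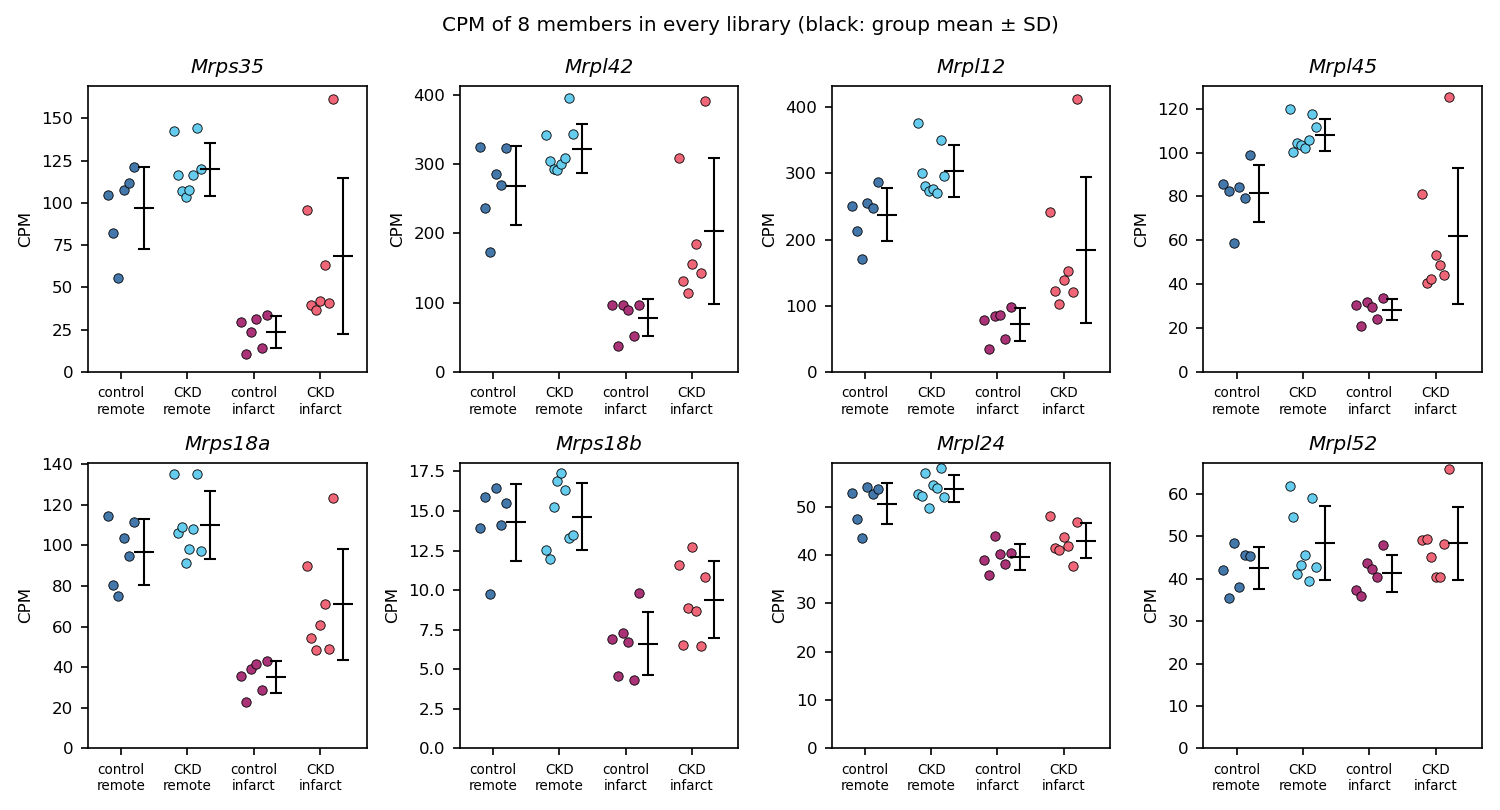
Level in CPM (counts scaled to the size of the library) of 8 members in each library of the 4 groups; points are libraries and black bars the group mean ± SD. Mrps35, Mrpl42, Mrpl12, Mrpl45 and Mrps18a are low in control infarcts and spread upward in CKD infarcts through mice 9172 and 9179. Mrpl24 and Mrpl52 differ less between groups.

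In infarct tissue, members were higher in CKD than in control mice. With all libraries, 42 of 48 large-subunit and 24 of 29 small-subunit members rose (edgeR, adjusted p under 0.05), against 13.1% of all genes tested. The median log2 fold change was 0.74 for each subunit, beside -0.02 over all genes, and 77 of 77 members were above 0. CPM did not overlap between the diets for 33 large-subunit and 18 small-subunit members, against 5.13% of all genes in that direction. At an unadjusted p under 0.05, 40.2% of all genes differed in either direction. The smallest adjusted p of any member, 0.0345, was also the smallest of any gene in this comparison.

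These calls depended on single libraries. Without the infarct library of control mouse 9171, 9182 or 9183, or of CKD mouse 9172 or 9177, 0 members were called. In each of those 5 fits 0 of all genes passed as well, while 72 to 74 of the 77 members had an unadjusted p under 0.05 and the median stayed between 0.66 and 0.77. Without the infarct libraries of both CKD mice 9172 and 9179, 0 members and 0 of all genes were called, so that every call between the diets in infarct tissue, here and for the gene lists described later, was lost. Of the members, 69 had an unadjusted p under 0.05, and the median fell to 0.46 (0.48 for the large and 0.42 for the small subunit). For these fits with libraries left out, the share of all genes at the unadjusted threshold was not computed. CPM did not overlap between diets for 51 members (against 5.27% of all genes) without those libraries. Leaving out libraries cannot create an overlap, so this count could only stay or rise.

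Mrps35 had the largest fold change here too. It ran from 10.6 to 33.6 CPM (median 26.4) in control infarcts and from 36.5 to 162 (median 41.8) in CKD infarcts. The groups did not overlap, although the CKD mean of 68.5 lay well above its median because of the highest libraries. The log2 fold change was 1.47 ± 0.39 (edgeR adjusted p = 0.0345) with all libraries and 0.85 (adjusted p = 0.0955) without mice 9172 and 9179. Mrpl42 went from 36.8 to 96.8 CPM (median 93.0) in control to 113 to 391 (median 155) in CKD infarcts. Its change was 1.33 ± 0.32, and 0.84 (edgeR adjusted p = 0.0910) without those 2 libraries.

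Of the stalk genes, Mrpl12 had a log2 fold change of 1.31 ± 0.34 in CKD infarcts, from a median of 81.6 to a median of 139 CPM without overlap. Mrpl11 followed with 0.80 ± 0.23 and Mrpl10 with 0.40 ± 0.11. Mrpl55 (1.23 ± 0.34) and Mrpl45 (1.08 ± 0.25) also rose. The edgeR adjusted p was 0.0345 for Mrpl12, Mrpl10, Mrpl55 and Mrpl45 and 0.0354 for Mrpl11. Without mice 9172 and 9179 the log2 fold changes of Mrpl12, Mrpl11, Mrpl10, Mrpl55 and Mrpl45 were 0.78, 0.44, 0.33, 0.73 and 0.64, with edgeR adjusted p of 0.0927, 0.0927, 0.0994, 0.106 and 0.0855.

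Among the members with the smallest p was Mrps23, a mitochondria-specific small-subunit protein. It ran from 35.7 to 83.8 CPM (median 80.7) in control and from 96.2 to 197 (median 142) in CKD infarcts, without overlap. The log2 fold change was 0.998 ± 0.22 with all libraries and 0.81 (edgeR adjusted p = 0.0873) without mice 9172 and 9179. Its spread in CKD infarcts was narrower than that of Mrps35, whose highest library lay at 162 CPM beside a median of 41.8.

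Proteins with a bacterial homologue and those found only in mitochondria changed by similar amounts in CKD infarcts. The median log2 fold change was 0.75 for 30 large-subunit members with a homologue and 0.73 for 18 without. In the small subunit it was 0.66 for 16 with a homologue and 0.77 for 12 without. The 4 medians were 0.49, 0.46, 0.36 and 0.53 without mice 9172 and 9179. In control hearts the regional change was -1.10, -1.17, -1.03 and -1.20 for the same classes. The difference between classes was not tested.

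**Figure D3:**
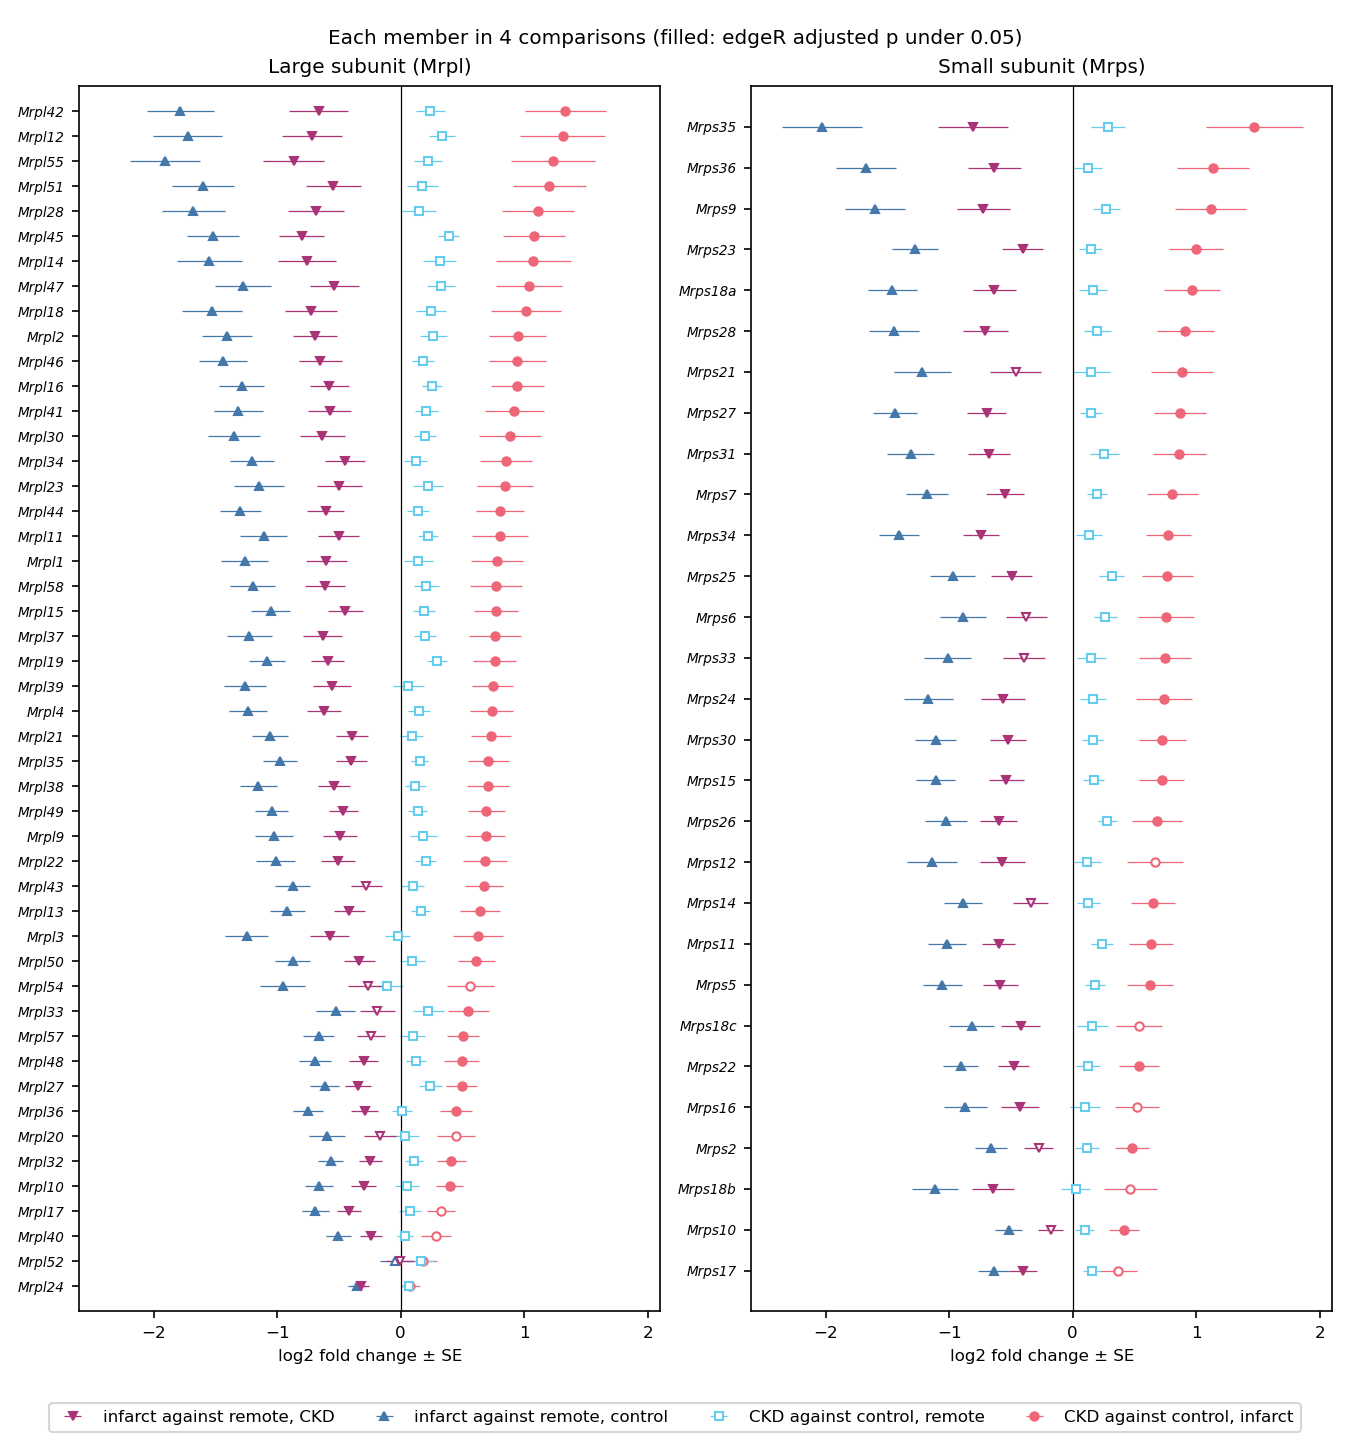
Log2 fold change ± SE of every tested member in 4 comparisons, large subunit on the left and small subunit on the right, sorted by the change between diets in infarct tissue; filled symbols passed edgeR's adjusted p of 0.05. Infarct tissue lies left of 0 in both diets except for Mrpl52, which sits at 0, CKD infarcts lie right of control infarcts, and the remote comparison sits close to 0 with no filled symbol.

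In CKD hearts, infarct tissue also held less of the members' transcripts than remote tissue, with smaller medians than in control hearts. By edgeR, 42 of 48 large-subunit and 23 of 29 small-subunit members fell, against 20.2% of all genes. The medians were -0.51 and -0.55. With all libraries, 3 large-subunit members, Mrpl24, Mrpl3 and Mrpl4, and 1 small-subunit member, Mrps27, had no overlap between regions, against 1.07% of all genes. Without the infarct libraries of mice 9172 and 9179 and the remote library of mouse 9180, 76 members fell and the medians were -0.79 and -0.85. In that fit 4649 of all 14888 genes tested were called lower. The regions then did not overlap for 40 large-subunit and 24 small-subunit members, against 17.3% of all genes. Such counts can only stay or rise when libraries are left out. These comparisons share the infarct libraries with the comparison of the diets.

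Mrps34, a small-subunit protein, had the smallest p among the members in both diets. It ran from 36.9 to 65.4 CPM (median 55.2) in control remote, 47.0 to 68.5 (median 60.6) in CKD remote, 12.9 to 24.7 (median 21.5) in control infarct and 25.2 to 50.4 (median 38.1) in CKD infarct libraries. Infarct and remote tissue were separate in control hearts, with a log2 fold change of -1.40 ± 0.16 (edgeR adjusted p = 9.45e-06), and overlapped in CKD hearts, with -0.74 ± 0.15 (edgeR adjusted p = 0.000397). Mrps27, a small-subunit protein with pentatricopeptide repeats that bind RNA, changed by -1.44 ± 0.18 in control and -0.70 ± 0.16 in CKD hearts. Mrpl4, which lines the exit tunnel of the large subunit, changed by -1.23 ± 0.15 and -0.62 ± 0.14. Without the 3 libraries the change in CKD hearts was -0.91 for Mrps34, -0.94 for Mrps27 and -0.87 for Mrpl4.

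Remote myocardium differed little between the diets. No member passed (0 of 77 by edgeR, 23 at an unadjusted p under 0.05), against 0.0216% of all genes called in either direction and 11.7% at the unadjusted threshold. Without mouse 9180, 0 members passed and 13 had an unadjusted p under 0.05. The share of all genes at that unadjusted threshold was not computed for this fit. With all libraries the sign was positive for 75 members and negative for 2, and the medians were 0.16 for both subunits, beside -0.00 over all genes. DESeq2 called 1 member, Mrpl45, and limma-voom with sample weights called 0. CPM did not overlap for 1 large-subunit and 1 small-subunit member, Mrpl45 and Mrps26, against 0.156% of all genes.

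Mrpl45 ran from 58.9 to 98.8 CPM (median 83.3) in control and from 100.4 to 120 (median 105) in CKD remote libraries. Its log2 fold change of 0.39 ± 0.09 did not pass (edgeR adjusted p = 0.182). Mrps26, a mitochondria-specific small-subunit protein, ran from 39.2 to 54.5 CPM and from 57.5 to 72.6 CPM, with a change of 0.28 ± 0.08 (edgeR adjusted p = 0.272). At the low end lay Mrpl54 with -0.11 ± 0.13 and Mrpl3 with -0.02 ± 0.10.

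Whether the effect of CKD differs between infarct and remote tissue was tested directly. The difference of the effects was positive for 77 of 77 members, with medians of 0.61 for the large and 0.57 for the small subunit, beside 0.06 over all genes. No member passed edgeR's adjusted threshold (lowest member adjusted p = 0.165), and 0% of all genes did. By edgeR, 63 members had an unadjusted p under 0.05, against 18.9% of all genes. DESeq2 called 26 members, and the share of all genes it called is not given here. The largest differences were those of Mrps35 (1.22 ± 0.42), Mrpl42 (1.12 ± 0.35), Mrpl51 (1.06 ± 0.33), Mrpl55 (1.04 ± 0.37) and Mrps36 (1.04 ± 0.32). Without the 3 libraries that stood apart, the median was 0.40 and 45 members had an unadjusted p under 0.05. The share of all genes at that threshold was not computed for this fit. Of the 77 differences, 76 were positive, the exception being Mrpl52 at -0.12. The differences of Mrps35, Mrpl42, Mrpl51, Mrpl55 and Mrps36 were then 0.72, 0.73, 0.65, 0.64 and 0.70.

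The 3 paralogs related to bacterial protein S18 occupy different sites, Mrps18c at the bacterial position, Mrps18b elsewhere in the small subunit and Mrps18a in the large subunit. In infarct tissue Mrps18a ran from 22.7 to 43.3 CPM (median 37.3) in control and from 48.5 to 124 (median 61.0) in CKD mice, with a log2 fold change of 0.97 ± 0.23 (edgeR adjusted p = 0.0345). Mrps18b ran from 4.33 to 9.80 and from 6.44 to 12.7 CPM, a change of 0.47 ± 0.22 that did not pass (adjusted p = 0.122). Mrps18c ran from 7.20 to 10.1 and from 9.003 to 22.4 CPM, with 0.54 ± 0.19 (adjusted p = 0.0579). The diets overlapped for Mrps18b and Mrps18c and were separate for Mrps18a. Leaving out mice 9172 and 9179, the changes were 0.64 (adjusted p = 0.0868), 0.35 (adjusted p = 0.345) and 0.25 (adjusted p = 0.225). In control hearts all 3 fell from remote to infarct tissue, by 1.46, 1.11 and 0.82 on the log2 scale.

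Mrps30 and Mrps36, whose symbols name the small subunit, did not stand out from it in sign. Mrps30 rose by 0.73 ± 0.19 in CKD infarcts and changed by -1.11 ± 0.17 from remote to infarct tissue in control hearts. Mrps36, the dehydrogenase protein, rose by 1.14 ± 0.29 and changed by -1.67 ± 0.24. The change in CKD infarcts was 0.47 for Mrps30 and 0.71 for Mrps36 without mice 9172 and 9179 (edgeR adjusted p = 0.0934 for both). Of the 31-base sequences of Mrps36, 39.9% were shared with other genes.

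Mutations of MRPL3, MRPL44 and MRPS22 in people cause mitochondrial disease with cardiomyopathy. In CKD infarcts Mrpl44, which has a fold related to RNase III, rose by 0.81 ± 0.19 (log2, edgeR adjusted p = 0.0345), from 15.1 to 27.2 CPM (median 24.3) in control to 28.4 to 62.1 (median 37.96). Mrpl3, an early-assembling protein near the peptidyl transferase centre, rose by 0.63 ± 0.20 (adjusted p = 0.0437) and Mrps22 by 0.53 ± 0.16 (adjusted p = 0.0394). Mrpl58, a release factor relative that frees stalled ribosomes, rose by 0.77 ± 0.21 (adjusted p = 0.0345). Without mice 9172 and 9179, Mrpl44, Mrpl3, Mrps22 and Mrpl58 changed by 0.55, 0.41, 0.44 and 0.45, with edgeR adjusted p of 0.0892, 0.172, 0.125 and 0.0934. From remote to infarct tissue in control hearts these 4 genes changed by -1.30, -1.25, -0.91 and -1.20, and in CKD hearts by -0.61, -0.57, -0.48 and -0.61.

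Some members were not called between the diets in infarct tissue. Mrpl52, a mitochondria-specific large-subunit protein, ran from 35.4 to 48.3 CPM in control remote, 39.6 to 61.8 in CKD remote, 35.8 to 47.9 in control infarct and 40.3 to 65.9 in CKD infarct libraries. All 4 ranges overlapped. It was the 1 member not called lower in control infarcts, with a log2 fold change of -0.04 ± 0.12 (edgeR adjusted p = 0.776). Upper-quartile scaling turned that sign, to 0.01. Mrpl24, which sits at the exit of the peptide tunnel, had small and regular differences, from 43.5 to 54.1 CPM in control remote to 35.8 to 43.9 in control infarcts. It changed by -0.35 ± 0.07 in control and -0.32 ± 0.06 in CKD hearts, both called by edgeR, and by 0.08 ± 0.08 between diets in infarct tissue (adjusted p = 0.453). Mrpl40 (0.28 ± 0.12) and Mrps17 (0.37 ± 0.15) were likewise not called between diets in infarcts, with edgeR adjusted p of 0.0995 and 0.0803. From remote to infarct tissue in control hearts both fell without overlap. The changes were -0.50 ± 0.10 for Mrpl40 and -0.64 ± 0.13 for Mrps17 (edgeR adjusted p = 0.000159 and 0.000143).

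Mrpl53 had no counts in any library. A limit of 3 counts corresponds to 0.0705 to 0.210 CPM, depending on the library. In the GENCODE M21 transcripts, 100% of its 31-base sequences also occur in other genes, with most matches in Gm42688. Gm42688 has 0 entries in the count table. Shared sequence bears on other members as well. Of 78 members, 6 share over 50% of their 31-base sequences with other genes, counted together and on either strand, and 20 share over 20%. Among the 6 are Mrps25 (74.6%, with most matches in Nr2c2), Mrps18b (59.6%) and Mrps34 (55.6%). The counts of these genes are uncertain where the authors' pseudoalignment could divide reads between the overlapping annotations. The median share was 7.00%, and it was 1.29% for Mrps35, 18.5% for Mrpl12 and 26.04% for Mrpl42.

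Other genes of mitochondrial translation are known by other names. Of 5 further ribosomal proteins (Dap3, Ptcd3, Chchd1, Aurkaip1 and Gadd45gip1), 5 rose in CKD infarcts by 0.58 to 0.92 on the log2 scale and 5 fell in control infarcts against remote tissue, with medians of 0.77 and -1.10. Of 25 genes for assembly of the ribosome and modification of its RNA, 10 rose (median 0.48) and 24 fell (median -0.75). Of 15 translation factors, 11 rose (median 0.63) and 13 fell (median -0.90). Of 20 mitochondrial aminoacyl-tRNA synthetases and their partners, 12 rose (median 0.49) and 18 fell (median -0.90). Among 9 genes of mitochondrial transcription and replication, 4 rose (median 0.34) and 7 fell (median -0.66). In the same comparisons 13.1% of all genes rose and 33.2% fell. Without mice 9172 and 9179 the medians between diets in infarcts were 0.47, 0.29, 0.40, 0.40 and 0.16 for these 5 lists in turn.

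The products and partners of mitochondrial translation had larger median changes than the ribosome's own genes. The 13 mRNAs encoded in mitochondrial DNA had a median log2 fold change of 1.56 in CKD infarcts (13 rose) and -2.34 from remote to infarct tissue in control hearts (13 fell). For 15 nuclear subunits of oxidative phosphorylation the medians were 1.38 (15 rose) and -2.02 (15 fell). Cardiomyocyte markers had medians of 1.497 (7 of 12 rose) and -2.17 (12 of 12 fell). In CKD hearts the regional medians of the same lists were -0.86, -0.84 and -0.83, beside -0.51 and -0.55 for the large and small subunit. Without mice 9172 and 9179 the medians between diets in infarcts were 0.998, 0.91 and 1.09, beside 0.48 and 0.42. Without those 2 libraries and the remote library of mouse 9180, the regional medians in CKD hearts were -1.50, -1.30 and -1.29, beside -0.79 and -0.85. The difference between lists was not tested.

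**Figure D4:**
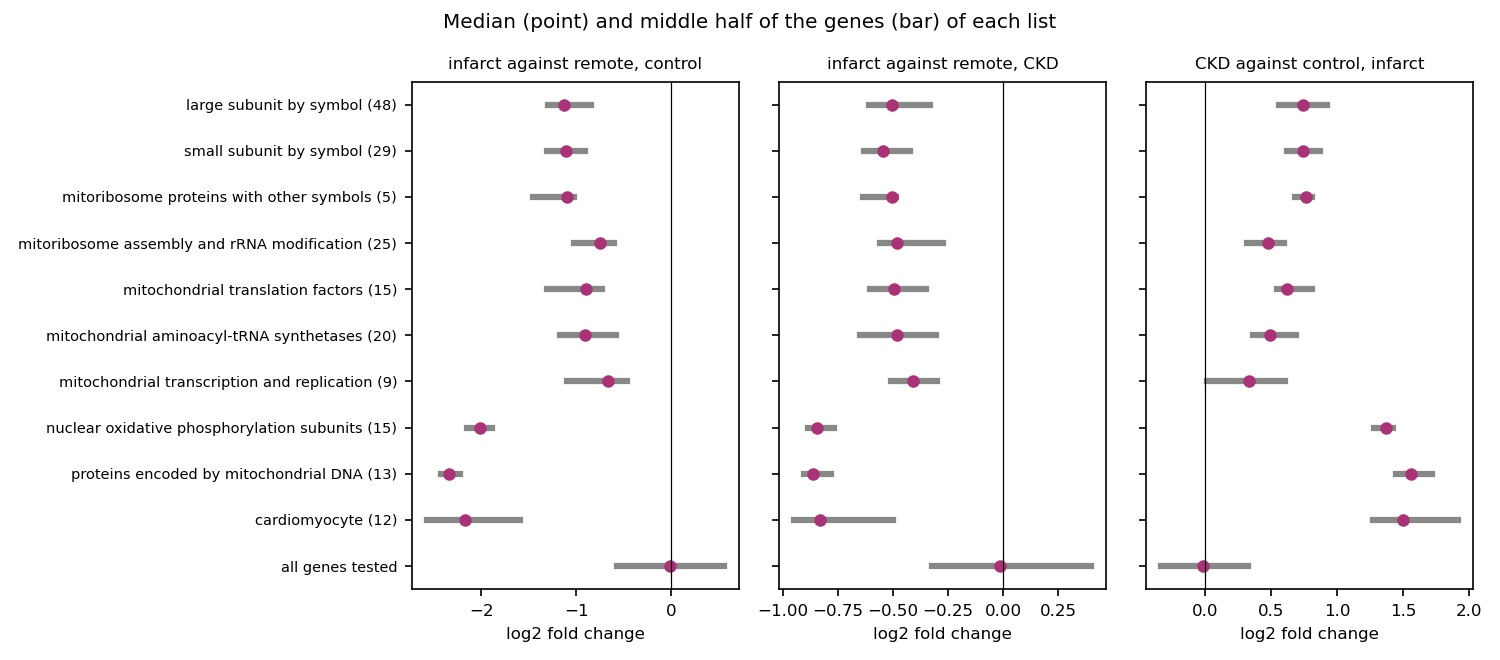
Median log2 fold change (points) and interquartile range of the genes (bars) for each gene list and for all genes tested, in 3 comparisons; the number of genes tested stands in parentheses. Both ribosomal subunits lie between all genes, near 0, and the oxidative phosphorylation, mitochondrial DNA and cardiomyocyte lists.

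Most regulators of mitochondrial biogenesis did not pass between diets. Of 9 listed, 3 rose in CKD infarcts and the list's median was -0.13. Those 3 were the coactivators Ppargc1a (1.90 ± 0.59, edgeR adjusted p = 0.0407) and Ppargc1b (1.46 ± 0.47, adjusted p = 0.0450) and the nuclear receptor Esrra (1.07 ± 0.28, adjusted p = 0.0345). Ppargc1a ran from 1.33 to 16.3 CPM in control and from 13.7 to 91.1 in CKD infarcts, with overlap. None of the 3 passed without mice 9172 and 9179, with 1.13, 0.92 and 0.68, and with the cardiomyocyte mean as a covariate they changed by -0.03, -0.09 and 0.14. Nrf1, Yy1 and Gabpa, which encode factors that bind promoters of ribosomal protein genes of mitochondria, were not called between diets in infarcts, with log2 fold changes of -0.23 ± 0.08, -0.13 ± 0.08 and 0.21 ± 0.12. From remote to infarct tissue in control hearts, 4 of the 9 rose and 4 fell, with Ppargc1a at -2.45 ± 0.49 and Esrra at -1.61 ± 0.25.

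Heart muscle transcripts had the same order of groups as the members. The mean log2 CPM of 12 cardiomyocyte markers was 12.13 ± 0.39 in control remote, 12.47 ± 0.14 in CKD remote, 9.81 ± 1.21 in control infarct and 11.54 ± 0.70 in CKD infarct libraries. In the CKD infarct group it was highest in mice 9179 (12.62) and 9172 (12.21). With this mean as a covariate, 0 members were called between diets in infarct tissue, 1 had an unadjusted p under 0.05, and the median log2 fold change was 0.20. The covariate ran from 7.62 to 10.60 in control and from 10.59 to 12.62 in CKD infarcts, so it and the diet cannot be told apart in this fit. No pooled correlation is given, because the libraries fall into separate groups.

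Relative to oxidative phosphorylation subunits, the members stood highest in control infarcts. The mean over all members minus the mean over 15 oxidative phosphorylation subunits was -4.19 ± 0.26 in control remote, -4.27 ± 0.10 in CKD remote, -3.17 ± 0.51 in control infarct and -3.85 ± 0.26 in CKD infarct libraries. In control infarcts, single values ran from -3.59 to -2.32, all above the range of remote control tissue, -4.39 to -3.71. CKD infarcts ran from -4.20 to -3.53 and overlapped CKD remote tissue, -4.38 to -4.13. Without mice 9172 and 9179 the CKD infarcts ran from -3.97 to -3.53 (mean -3.73 ± 0.20), all above CKD remote tissue. Leaving out libraries can only narrow a range. mRNAs encoded in mitochondrial DNA took 17.99% ± 3.2 of the counts in control remote, 18.7% ± 2.3 in CKD remote, 4.98% ± 2.24 in control infarct and 11.9% ± 5.0 in CKD infarct libraries (9.07% ± 1.8 without mice 9172 and 9179).

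**Figure D5:**
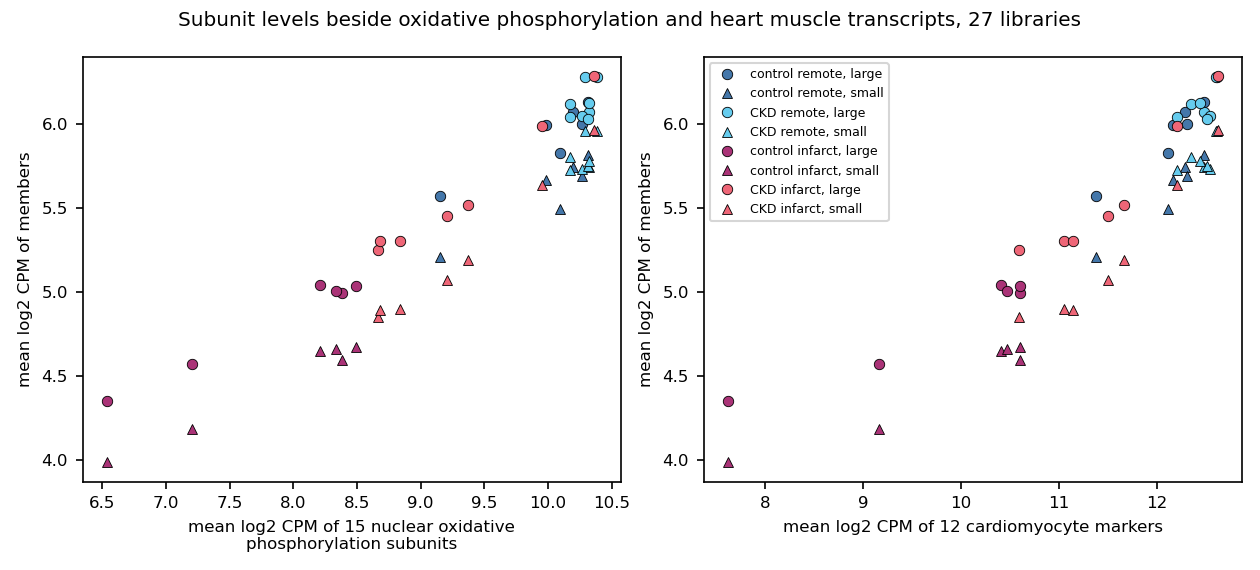
Mean log2 CPM of the members (large subunit as circles, small subunit as triangles) against the mean log2 CPM of 15 nuclear oxidative phosphorylation subunits (left) and of 12 cardiomyocyte markers (right), 1 point per library and subunit. Both subunits rise along each axis, and the infarct libraries of CKD mice 9172 and 9179 lie among the remote libraries.

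Promoters were compared because the members changed together. RefSeq promoter sequences of build GRCm38.p6, from 250 bases before to 50 after the start of transcription, matched 69 of the 78 members. The letters TTCCGG, the core bound by ETS factors such as GABP, were searched on both strands and found in 40 of 69 members (58%), against 16.7% of 27025 genes. The share was 58.1% in the large and 57.7% in the small subunit. The longer form ACTTCCGG, which contains the core, was found in 17.4% against 4.31%. The consensus of NRF1 (nuclear respiratory factor 1) was found in 9 of 69 (13%) against 2.74%, in 8 of 43 large-subunit and 1 of 26 small-subunit members. The extended YY1 consensus was found in 6 of 69 (8.7%) against 0.94%, in 2 large-subunit and 4 small-subunit members. The E-box CACGTG was found in 7.25% against 8.09%. All were searched on both strands, and apart from the longer ETS form no motif contains another. The 27025 genes were not limited to those that passed the filter on low counts. Shares among the genes tested here were not computed.

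Members with the ETS core and members without it changed by similar amounts. In CKD infarcts the median log2 fold change was 0.68 over 39 tested members with the core and 0.77 over 29 without. From remote to infarct tissue in control hearts the medians were -1.11 and -1.15. The difference between the 2 sets was not tested. The 4 promoters printed here belong to the matched members with the highest and the lowest change between diets in infarct tissue. These are Mrpl51 and Mrpl52 with the core and Mrpl42 and Mrpl24 without it. Mrps35, which had the largest change of any member, had no matched promoter. Mrpl51 (chr6:125191950-125192199, plus strand) encodes a mitochondria-specific large-subunit protein and changed by 1.20 ± 0.30. Mrpl52 (chr14:54426659-54426908, plus strand), Mrpl42 (chr10:95501950-95502199, minus strand) and Mrpl24 (chr3:87919294-87919543, plus strand) changed by 0.18, 1.33 and 0.08. Each run holds the 250 bases before the start, read 5′ to 3′ on the gene's strand, and capitals mark TTCCGG or its reverse complement. Positions are those of GRCm38.p6, not of the build named for the counts.
Mrpl51: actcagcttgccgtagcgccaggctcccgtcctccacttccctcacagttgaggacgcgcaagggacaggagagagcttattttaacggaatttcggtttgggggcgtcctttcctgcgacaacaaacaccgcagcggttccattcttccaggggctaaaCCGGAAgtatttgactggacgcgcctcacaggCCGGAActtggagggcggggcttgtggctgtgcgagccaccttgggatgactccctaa
Mrpl52: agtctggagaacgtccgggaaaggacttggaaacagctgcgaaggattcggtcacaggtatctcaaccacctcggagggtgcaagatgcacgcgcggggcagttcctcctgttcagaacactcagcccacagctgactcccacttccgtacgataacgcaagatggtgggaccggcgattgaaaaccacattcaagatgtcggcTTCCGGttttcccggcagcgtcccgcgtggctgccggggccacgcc
Mrpl42: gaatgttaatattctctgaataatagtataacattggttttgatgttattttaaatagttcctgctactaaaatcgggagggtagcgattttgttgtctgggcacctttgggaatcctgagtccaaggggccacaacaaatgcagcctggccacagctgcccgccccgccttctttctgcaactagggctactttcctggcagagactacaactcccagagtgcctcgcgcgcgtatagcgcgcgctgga
Mrpl24: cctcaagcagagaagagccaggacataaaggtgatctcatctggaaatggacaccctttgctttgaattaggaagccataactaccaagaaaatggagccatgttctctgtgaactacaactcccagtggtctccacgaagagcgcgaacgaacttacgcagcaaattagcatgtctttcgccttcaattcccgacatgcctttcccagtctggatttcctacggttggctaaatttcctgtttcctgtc

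The core begins 90 and 58 bases before the start in Mrpl51 and 46 bases before it in Mrpl52. A match describes letters only and is not evidence of binding.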

How the data were processed

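The deposited table holds whole-number counts per gene for 27 libraries, a unit read from the values. The authors used kallisto 0.48.0 and build GRCm39, per the submitters' processing notes; how transcript estimates became counts per gene, the annotation release and any filter are not given in the sources used here. Libraries came from total RNA prepared with a NEBNext kit, per the labels' protocols. No per-sample column was left unmapped.

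Members and gene lists were chosen with earlier results of these data known, so counts and medians over members are descriptions and support nothing on their own. Groups came from the sample titles. Genes were filtered with filterByExpr, scaled by TMM and tested by quasi-likelihood in edgeR 4.0.16 (R 4.3.3); p-values were adjusted by Benjamini-Hochberg over all genes, and 0.05 was the limit for a call. The diets were compared within a region using only the libraries of that region. For region comparisons and the difference of effects, 1 model with 4 group means held the 27 libraries. CPM use TMM factors, and mean log2 CPM values a prior count of 2. A standard error is the size of the log2 fold change over the square root of its F value. Depth of 14255456 to 42566498 counts limits precision, and the limit of 3 counts covers counting error only.

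Members named are, per comparison and subunit, the 3 highest and 3 lowest, the 5 smallest p over both subunits, and 12 genes chosen for their roles; the text prints a selection. Of other lists the 2 genes with the smallest p may be named. Mrpl45 (infarcts and control hearts), Mrpl51 (infarcts), Ppargc1b, Nrf1, Yy1 and Gabpa fall outside this rule and were named after their values were seen. Alternatives were DESeq2 1.42.0, its size factors, upper-quartile scaling, other filters, limma-voom (limma 3.58.1) with sample weights, other placements of mouse 9179, omitted libraries, a cardiomyocyte covariate, a fit of all 27 libraries for the diet comparisons and mouse as a block. Leaving out the 3 libraries together with the block or the covariate, and leaving them out of group means, within-heart differences, overlap counts and list medians, was chosen after seeing the data. Residuals of the 13 mice with both regions correlated between regions at -0.10 to 0.40 (median 0.17), against a median of -0.02 for other mice; the pairing itself comes from the mouse numbers in the titles. No pair of libraries was a duplicate (lowest chi-square per degree of freedom 9.52 over 79 pairs). The tests were tested on simulated data with 200 changed genes per comparison. Of genes changed 1.5-fold, 30.1% were recovered between diets in remote tissue, 22.2% in infarcts and 12% for the difference of effects. At 2-fold these shares were 75.8%, 50% and 48.4%. Unchanged genes called numbered 8, 7 and 3 in that order. Nothing says that p-values cover more than the spread between these mice.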

Additional observations from a re-analysis of the deposited data

Results flagged for a closer look

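For 184 groups (levels of the named members and the subunit means in each of the 4 groups), the highest or lowest library was checked for a gap to the others above Dixon's 95% critical value; chance alone gives about 1 in 20, and 12 were found. In CKD infarcts the library of mouse 9179 lay far above the others for 6 members. It held 95.0 CPM of Mrpl11 (others 34.6 to 58.3), 163 of Mrpl14 (39.8 to 93.0), 76.0 of Mrpl20 (39.7 to 47.7), 65.9 of Mrpl52 (40.3 to 49.3), 73.1 of Mrps25 (28.4 to 43.3) and 152 of Mrps9 (46.3 to 85.0). In control remote tissue the library of mouse 9180 lay far below the others for 4 members. It held 54.8 CPM of Mrpl3 (others 84.5 to 100.3), 44.2 of Mrpl38 (62.4 to 71.9), 67.1 of Mrpl4 (100.6 to 117) and 9.73 of Mrps18b (13.9 to 16.4). In CKD remote tissue mouse 9172 was highest for Mrpl47, at 36.6 CPM (others 25.6 to 30.3). Mouse 9177 had the lowest large-minus-small difference of that group, 0.28 log2 CPM (others 0.31 to 0.34).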

How the results depend on the processing

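The counts of 76 members lower in control infarcts than in remote tissue and of 65 in CKD hearts stayed within 1.5 times under every alternative run, at 76 to 76 and 48 to 73 with single libraries left out; with mouse as a replicate block 76 and 70 were called. The share of all genes called between regions in these alternative fits is not given here. These counts therefore do not set the members apart from other genes. The block changed no call of the difference of effects, with 0 members. Between diets in infarct tissue, the 66 higher members became 0 to 72 with single libraries left out, 0 without the 3 libraries that stood apart, 0 with the cardiomyocyte covariate and 0 with both. Between diets in remote tissue, 0 became 1 with DESeq2. For the difference of effects, 0 became 26 with DESeq2. The share of all genes that DESeq2 called is not given for either comparison. The large-minus-small difference by place in the ribosome was 0.37 in control remote and 0.36 in CKD remote libraries. Its infarct values are not given here, so these 2 values do not describe the difference between regions. With medians over members it was 0.23 in control remote, 0.17 in CKD remote, 0.31 in control infarct and 0.24 in CKD infarct libraries. The cause was not tested. Some single genes changed sign. Between diets in infarcts these were, with the covariate and with it and the 3 libraries left out, Mrps18b (-0.000984 and -0.0173), Mrpl24 (-0.0486 and -0.0713), Mrpl40 (-0.0244 and -0.0427), Ppargc1a (-0.0342 and -0.0150) and Ppargc1b (-0.0922 and -0.0758), and Mrpl52 (-0.00310) in the latter. From remote to infarct tissue Mrpl52 was 0.0100 in control hearts with upper-quartile scaling. In CKD hearts it was 0.0168 with DESeq2 size factors, 0.0189 with upper-quartile scaling, 0.0159 with DESeq2, 0.0226 with the block and 0.00687 with no filter. With single libraries left out, Mrpl52 ran from -0.0897 to 0.00406 in control and -0.0614 to 0.0666 in CKD hearts, and Mrpl3 between diets in remote tissue from -0.12 to 0.0177. The chance that a fit with fewer libraries misses a change of this size was not tested.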
